A study of Glycine max with 14 samples.

Results

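The 2 vegetative storage protein genes of soybean (Glycine max), called VSP alpha and VSP beta here, were followed through germination and early seedling growth in cotyledons. They were chosen by identifier, as all gene models of the loci Glyma07g01730 (VSP alpha) and Glyma08g21410 (VSP beta). This gave 3 models, Glyma07g01730.1, Glyma08g21410.1 and Glyma08g21410.2, of the 78773 models and 69145 loci in the deposited files. All 3 passed the filter on low values, as did 44450 models in all. The files give identifiers without gene names, so the names rest on general knowledge of the loci. RefSeq lists a gene VSPA on chromosome 7 and a gene with the synonym VSPB on chromosome 8, the same chromosome numbers that the identifiers carry.

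The cotyledons came from the cultivar Williams, grown in a greenhouse and lyophilized before total RNA was extracted. Stage 1 was sampled 1 day after imbibition and stage 2 was sampled 2 days after planting. Stages 3 to 7 followed in windows of 1 day each, which opened on days 2, 3, 4, 5 and 6 after planting. Each stage has 2 biological replicates, which makes 14 libraries. The number of seedlings behind a replicate is not known here.

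Vegetative storage proteins are glycoproteins related to acid phosphatases that collect in the vacuoles of soybean leaves, stems and other vegetative tissues. They are known as a temporary store of nitrogen that builds up when growing sinks such as pods are removed and is drawn on later. In soybean leaves their genes are known to respond to jasmonate, wounding and sugars, and to be held down by phosphate and auxin. They differ in this from the glycinins, the storage globulins laid down in the cotyledon while the seed matures.

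RPKM values (reads normalised to the length of the model and to the reads assigned in the library) are relative abundances in bulk tissue, so a lower value from fewer expressing cells and one from less RNA per cell cannot be told apart. Read totals behind the values ran from 83.9 M to 131 M per library. For the tissue, limma called all 5 glycinin models lower at stage 7 than at stage 1, beside 16.6% of all tested models. Of 4 models of the small subunit of Rubisco, the carbon-fixing enzyme of green tissue, 3 were called higher, beside 18.4%. The thresholds are given below. The remaining Rubisco model stayed below 1 RPKM throughout. Glyma19g06340.1 and Glyma19g06370.1, among the 3, had nearly equal log2 fold changes (8.49 and 8.50). How reads that match both were counted is not known here, so these models may not be independent. The stage 1 replicates stood further apart than any other pair, with an SD of their log2 difference over the tested models of 1.105, against 0.437 to 0.531 at stages 2 to 7. In every stage a run of models from Glyma13g11810 to Glyma13g12210 took more reads in replicate 2 (3.43% to 15.3%) than in replicate 1 (0.566% to 3.43%).

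The RNAs of both vegetative storage protein genes were scarce after imbibition and among the most abundant of the cotyledon at stages 5 and 6. VSP alpha stood at 1.13 and 4.07 RPKM in replicates 1 and 2 of stage 1 and 17.3 and 172 RPKM in those of stage 2. Stage 3 gave 40.7 and 161 RPKM, and stage 4 gave 257 and 1386 RPKM. Stage 5 gave 432 and 2785 RPKM, stage 6 gave 1613 and 2465 RPKM, and stage 7 gave 893 and 1579 RPKM. The 2 stage 1 libraries were the lowest of the 14, the pairs of stages 2 and 3, 4 and 5, and 5 and 6 overlapped, both stage 7 libraries lay below both stage 6 libraries, and the highest single library was replicate 2 of stage 5.

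VSP beta, read from its more abundant model Glyma08g21410.1, was higher than VSP alpha in every library. It stood at 3.83 and 12.5 RPKM in replicates 1 and 2 of stage 1 and 27.7 and 513 RPKM in those of stage 2. Stage 3 gave 79.3 and 524 RPKM, and stage 4 gave 766 and 3484 RPKM. Stage 5 gave 1433 and 6166 RPKM, stage 6 gave 3810 and 5234 RPKM, and stage 7 gave 1197 and 3025 RPKM. Here too stage 1 was lowest in both replicates, neighbouring stages from 2 to 3, 4 to 5 and 5 to 6 overlapped, and both stage 7 libraries lay below both stage 6 libraries.

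**Figure D1:**
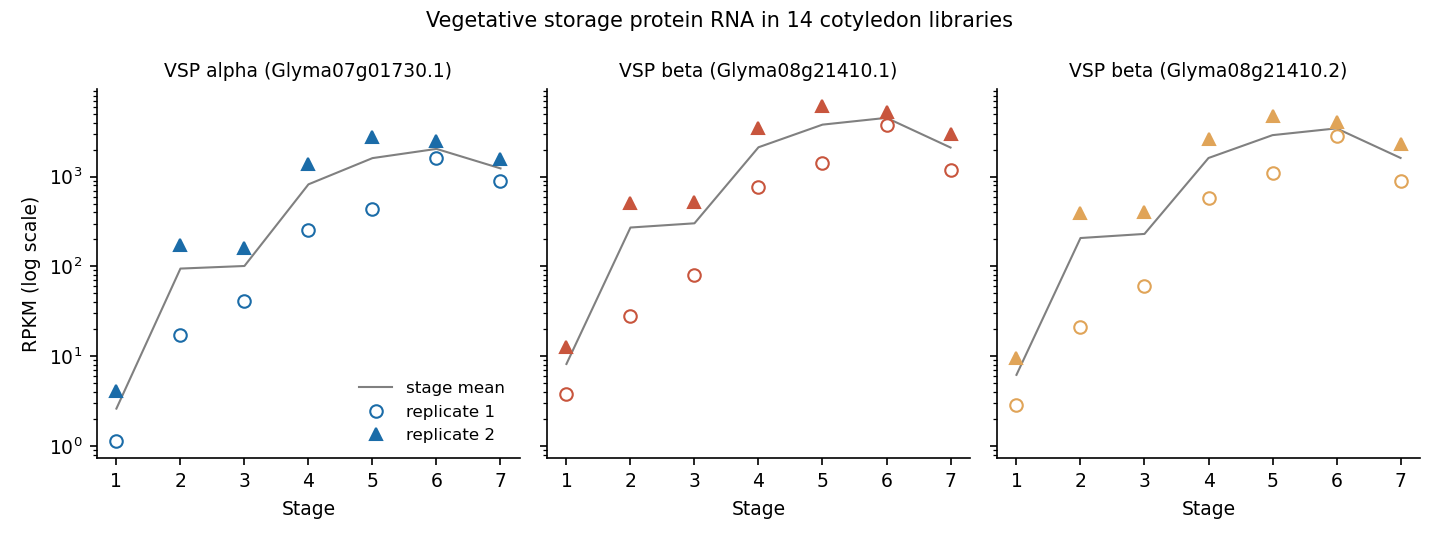
RPKM on a log axis against stage for the 3 vegetative storage protein models; open circles are replicate 1, filled triangles replicate 2 and the grey line the stage mean. Replicate 2 lies above replicate 1 at each of the 7 stages in all 3 panels, and the stage mean is highest at stage 6.

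The stage means put stage 6 highest for both genes. VSP alpha averaged 2.60 ± 2.08 RPKM at stage 1 (SD, n = 2 at each stage), 94.5 ± 109 RPKM at stage 2 and 101 ± 85.3 RPKM at stage 3. Its mean was 821 ± 798 RPKM at stage 4, 1609 ± 1664 RPKM at stage 5, 2039 ± 603 RPKM at stage 6 and 1236 ± 485 RPKM at stage 7. VSP beta averaged 8.17 ± 6.13 RPKM at stage 1 (SD, n = 2 at each stage), 271 ± 343 RPKM at stage 2 and 302 ± 314 RPKM at stage 3. Its mean was 2125 ± 1922 RPKM at stage 4, 3799 ± 3347 RPKM at stage 5, 4522 ± 1007 RPKM at stage 6 and 2111 ± 1293 RPKM at stage 7. From stage 2 to stage 5 the SD was about as large as the mean. The order within the pairs of stages 2 and 3, 4 and 5, and 5 and 6 is not resolved by 2 libraries. These pairs overlapped, so stage 6 is highest by its mean only. Every library of stages 4 and 5 lay above every library of stages 2 and 3 for both genes, though the step from stage 3 to stage 4 did not pass the test.

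Among all loci, each read from its most abundant model, VSP beta ranked 15451 and 7726 from the top in replicates 1 and 2 of stage 1. It ranked 5 in both libraries of stage 6. VSP alpha ranked 24156 and 18159 at stage 1, and 13 and 20 at stage 6. At stage 7 VSP beta ranked 13 and 6 in replicates 1 and 2, and VSP alpha 23 and 22. In replicate 1 of stage 5 VSP beta ranked 8 and VSP alpha 99. The best rank of each gene was in replicate 2 of stage 5, where VSP beta was 3 and VSP alpha was 6. There Glyma07g01730.1 and Glyma08g21410.1 together took 0.945% of all reads (826319 reads, 95% Wilson interval 0.943% to 0.947%), the most of any library. The least was 0.000528% in replicate 1 of stage 1 (596 reads, 0.000487% to 0.000572%). These intervals cover counting error only, and the counts of reads were recovered from the RPKM values.

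The second model of VSP beta gave no course of its own. Glyma08g21410.2, of 1244 bases, averaged 6.18 ± 4.76 RPKM at stage 1, 3453 ± 826 RPKM at stage 6 and 1616 ± 1009 RPKM at stage 7 (SD, n = 2 each). Its RPKM was 0.735 to 0.771 times that of Glyma08g21410.1, of 1081 bases, in each of the 14 libraries, and its reads 0.846 to 0.888 times. How reads that match both models, or both genes, were counted is not known here. The split of reads among the 3 models is therefore uncertain, and the 2 VSP beta models are not independent measurements.

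Between stage 1 and stage 7 both genes rose. In limma, on the log2(RPKM + 1) scale, VSP alpha had a log2 fold change of 8.50 ± 1.22 (SE) and an adjusted p of 0.000360, the rank of 23 from the top among all tested models. Glyma08g21410.1 had 7.88 ± 1.37 with an adjusted p of 0.00114, and Glyma08g21410.2 had 7.84 ± 1.37 with an adjusted p of 0.00117. All 3 models were thus called higher at stage 7 (adjusted p under 0.05 and a log2 fold change of at least 1), a call made for 18.4% of the tested models, and the median log2 fold change over all tested models was -0.12. Both stage 7 libraries lay above both stage 1 libraries in all 3, as they did in 29.7% of the tested models. Within replicate 1 alone the log2 differences were 8.71 for VSP alpha and 7.95 for VSP beta, and within replicate 2 alone 8.28 and 7.81. With 1 library left out, the fitted values ran from 7.87 to 9.12 for VSP alpha and from 7.14 to 8.62 for Glyma08g21410.1, and every one stayed past the test.

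Over the whole course the moderated F test of limma called all 3 models as changing with stage, with an adjusted p of 0.00123 for VSP alpha, 0.00257 for Glyma08g21410.1 and 0.00264 for Glyma08g21410.2. This is a common call, made for 58.0% of the tested models. Without the stage 1 libraries, the pair that stood apart, the adjusted p was 0.0204 for VSP alpha and 0.0372 for Glyma08g21410.1.

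Between successive stages, the highest log2 fold changes were those of stage 2 against stage 1 and stage 4 against stage 3, and neither passed the test in the fit without a replicate term. At stage 2 VSP alpha averaged 94.5 RPKM, against 2.60 at stage 1, a log2 fold change of 4.10 ± 1.22 (SE) with an adjusted p of 0.101 in limma. VSP beta averaged 271 RPKM at stage 2, against 8.17 at stage 1, a log2 fold change of 3.91 ± 1.37 with an adjusted p of 0.142. Here and at the later steps, the log2 fold changes are differences of mean log2(RPKM + 1), not ratios of the averages in RPKM. None of the 3 models was called at this step in limma, where 1.78% of tested models were, although all 3 had an unadjusted p under 0.05, and limma voom on the recovered reads called none either. Both stage 2 libraries lay above both stage 1 libraries in all 3 models, as they did in 34.0% of the tested models. VSP alpha was called without replicate 2 of stage 1 (adjusted p = 0.0344).

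At stage 4 VSP alpha averaged 821 RPKM, against 101 at stage 3, a log2 fold change of 2.86 ± 1.22 (SE) with an adjusted p of 0.368 in limma. VSP beta averaged 2125 RPKM at stage 4, against 302 at stage 3, a log2 fold change of 2.99 ± 1.37 with an adjusted p of 0.401. The log2 difference at this step was 2.63 in replicate 1 and 3.09 in replicate 2 for VSP alpha, and 3.25 in replicate 1 and 2.73 in replicate 2 for VSP beta. Both stage 4 libraries lay above both stage 3 libraries in all 3 models, as they did in 24.1% of the tested models. Limma called 0 of the 3 models here and 0.00225% of all tested models. Of the 3 models, 1 had an unadjusted p under 0.05 both in limma and in limma voom, and limma voom also called 0.

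The other steps up to stage 6 had log2 fold changes of 0.55 to 0.88 for VSP alpha and 0.59 to 0.86 for VSP beta, and at 2 of them the replicates differed. From stage 2 to stage 3 VSP alpha had a log2 difference of 1.18 in replicate 1 and -0.09 in replicate 2, and VSP beta 1.48 and 0.03. From stage 5 to stage 6 VSP alpha had 1.90 in replicate 1 and -0.18 in replicate 2, and VSP beta 1.41 and -0.24. In replicate 1 the highest value therefore came at stage 6 and in replicate 2 at stage 5, for both genes. From stage 4 to stage 5 all values were positive, 0.75 and 1.01 for VSP alpha and 0.90 and 0.82 for VSP beta in replicates 1 and 2. At these 3 steps limma called 0 of the 3 models, with 0 at an unadjusted p under 0.05, beside 0.00% of all tested models at stage 3 against stage 2, 0.0607% at stage 5 against stage 4 and 0.00% at stage 6 against stage 5. Limma voom called 0 of 3 at each, again with 0 at an unadjusted p under 0.05.

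At stage 7 both genes stood below stage 6, without passing the test. VSP beta averaged 2111 RPKM at stage 7, against 4522 at stage 6, a log2 fold change of -1.23 ± 1.37 (SE) with an adjusted p of 0.732 in limma. VSP alpha averaged 1236 RPKM at stage 7, against 2039 at stage 6, a log2 fold change of -0.75 ± 1.22 with an adjusted p of 0.834. The difference was negative in both replicates, at -1.67 and -0.79 for VSP beta and at -0.85 and -0.64 for VSP alpha in replicates 1 and 2. All 3 models had both stage 7 libraries below both stage 6 libraries, as 13.0% of the tested models did, while the median log2 fold change over all tested models at this step was 0.21. Limma called 0 of 3 models and 1.03% of all models, no member had an unadjusted p under 0.05, and limma voom called 0 of 3.

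Replicate 2 held more vegetative storage protein RNA than replicate 1 at every stage. For VSP alpha the ratio of replicate 2 to replicate 1 was 3.59 at stage 1, reached 9.90 at stage 2 and was 3.96 at stage 3. It was 5.39 at stage 4, then 6.44 at stage 5, with 1.53 at stage 6 and 1.77 at stage 7. For VSP beta it was 3.26 at stage 1, reached 18.5 at stage 2 and was 6.60 at stage 3. It was 4.55 at stage 4, then 4.30 at stage 5, with 1.37 at stage 6 and 2.53 at stage 7. The gap was widest at stage 2 and narrowest at stage 6 for both genes. Of the tested models, 2.39% had replicate 2 above replicate 1 in all 7 stages. By the median over stages of the log2(RPKM + 1) difference between the replicates, VSP alpha (1.96) ranked 70 and Glyma08g21410.1 (2.10) ranked 67 from the top of 44450 models.

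Other abundant cotyledon RNAs are given beside this from the same libraries. The most abundant Rubisco small subunit model, Glyma19g06370.1, stood at 418 RPKM in replicate 2 and 256 RPKM in replicate 1 of stage 2, and at 16075 and 17734 RPKM in replicates 2 and 1 of stage 6. It was higher in replicate 2 at 5 of 7 stages. The reads taken by the run of models on chromosome 13 were also higher in replicate 2 at all 7 stages. The part of these reads in the gap between the replicates was not tested. A rescaling without those reads raised the other values of each library, the more so where those reads took a larger part. Its result is given for the change between stages only. The rescaling left the log2 fold change of stage 7 against stage 1 at 8.43 for VSP alpha and 7.79 for VSP beta. No label gives a batch or date for the replicates.

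**Figure D2:**
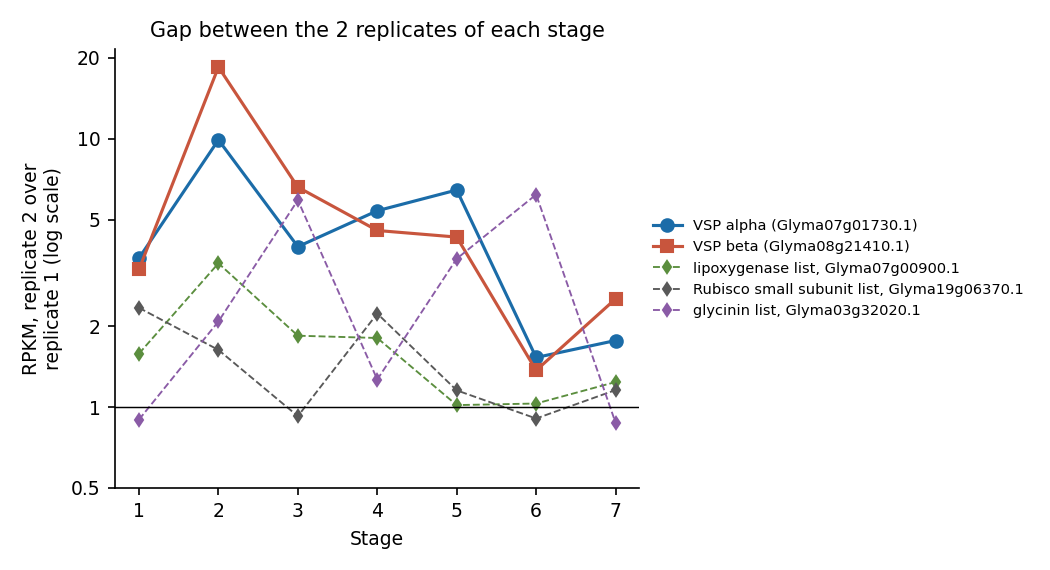
Ratio of RPKM in replicate 2 to RPKM in replicate 1 on a log axis against stage; solid lines are VSP alpha and VSP beta, dashed lines 1 model each of the lipoxygenase, Rubisco small subunit and glycinin lists, and the black line marks equal values. Both vegetative storage protein genes lie above 1 at all 7 stages, with 9.90 and 18.5 at stage 2.

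VSP beta was the more abundant of the pair in every library. The ratio of VSP alpha to VSP beta, each per length, was 0.295 and 0.325 in replicates 1 and 2 of stage 1, 0.626 and 0.334 at stage 2, 0.513 and 0.308 at stage 3 and 0.336 and 0.398 at stage 4. It was 0.302 and 0.452 at stage 5, 0.423 and 0.471 at stage 6 and 0.746 and 0.522 at stage 7. VSP beta was thus higher in 14 of 14 libraries. The mean log2 ratio of VSP alpha to VSP beta, with 1 RPKM added to each, was -1.21 ± 0.38 (SD over 14 libraries). An exact two-sided sign-flip permutation test gave p = 0.000122, the smallest it can give with 14 libraries. A constant bias in counting reads that match both genes would have the same sign in every library. The test cannot tell such a bias from a difference in RNA. With all models at each locus summed, so that both VSP beta models count, the mean log2 ratio was -2.01. If reads that match both VSP beta models were counted for each, that sum counts them more than once.

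The ratio was highest at stage 7, with a mean of 0.634 ± 0.159 (SD, n = 2), against 0.447 ± 0.0337 at stage 6 and 0.310 ± 0.0213 at stage 1. Replicate 1 of stage 2, at 0.626, lay between the stage 7 libraries. An exact permutation test over all 135135 ways of pairing the libraries gave p = 0.530 for a difference of the log2 ratio among stages, so no shift in the proportion of the 2 genes was resolved with 2 libraries a stage.

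**Figure D3:**
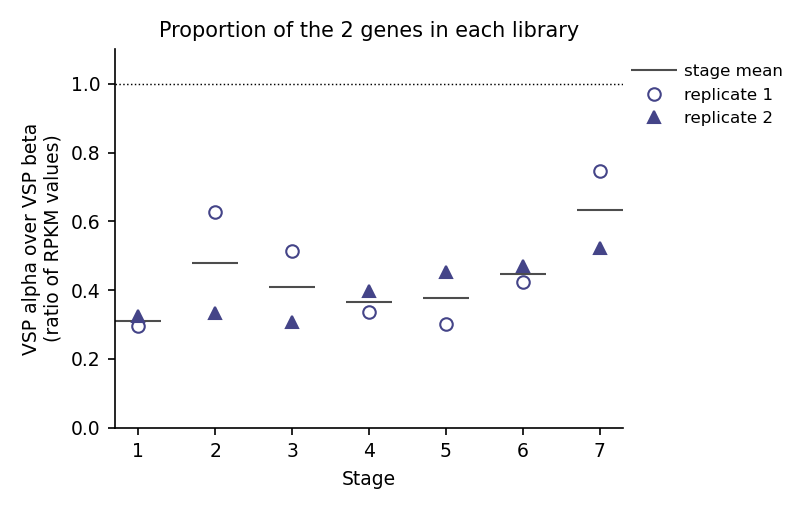
Ratio of VSP alpha RPKM to VSP beta RPKM (Glyma08g21410.1) in each library against stage; open circles are replicate 1, filled triangles replicate 2, bars the stage means and the dotted line equal levels. All 14 libraries lie below 1, between 0.295 and 0.746.

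The course of the vegetative storage proteins was set beside vegetative lipoxygenases, enzymes that oxidise polyunsaturated fatty acids and some of which are known to be stored in soybean leaf vacuoles together with these proteins. Of 9 identifiers taken as vegetative lipoxygenases on chromosomes 7 and 8, 4 passed the filter. Between stage 1 and stage 7, 2 of the 4 were called higher, beside 18.4% of all tested models, and 0 lower, beside 16.6%. Their median log2 fold change was 3.58, against -0.12 over all tested models. Glyma07g00900.1 stood at 284 and 352 RPKM at stage 7, against 1.70 and 2.69 RPKM at stage 1 (log2 fold change 6.65 ± 0.54 SE, limma adjusted p = 1.13e-05). Glyma07g00890.1 stood at 146 and 193 RPKM at stage 7, against 0.115 and 0.409 RPKM at stage 1 (7.08 ± 0.80, limma adjusted p = 7.96e-05). Both were highest at stage 6 by their means and higher in replicate 2 than in replicate 1 at 7 of 7 stages, as the vegetative storage proteins were. The other two, Glyma08g20190.1 and Glyma08g20230.1, had log2 fold changes of 0.51 and 0.52 and did not pass.

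The glycinins fell. All 5 models were called lower at stage 7 than at stage 1, a call made for 16.6% of the tested models, with a median log2 fold change of -3.57. The most abundant, Glyma03g32020.1, stood at 1.51 and 1.32 RPKM in replicates 1 and 2 of stage 7, against 118 and 106 RPKM in replicates 1 and 2 of stage 1 (log2 fold change -5.55 ± 0.77 SE, limma adjusted p = 0.000285). In stage means VSP beta was 0.0728 times this glycinin at stage 1, 11.4 times at stage 2, 403 times at stage 4 and 1491 times at stage 7. Against the Rubisco small subunit model Glyma19g06370.1, VSP beta stood at 0.251 times at stage 1, 0.803 times at stage 2, 0.267 times at stage 6 and 0.188 times at stage 7. These ratios of stage means are given without a test. At stage 2 they hide a wide gap, since VSP beta stood at 27.7 and 513 RPKM in replicates 1 and 2. Glyma19g06370.1 stood at 256 and 418 RPKM there, so VSP beta lay below it in replicate 1 and above it in replicate 2. Glyma03g32020.1 stood at 15.4 and 32.1 RPKM in the same libraries, below VSP beta in both.

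**Figure D4:**
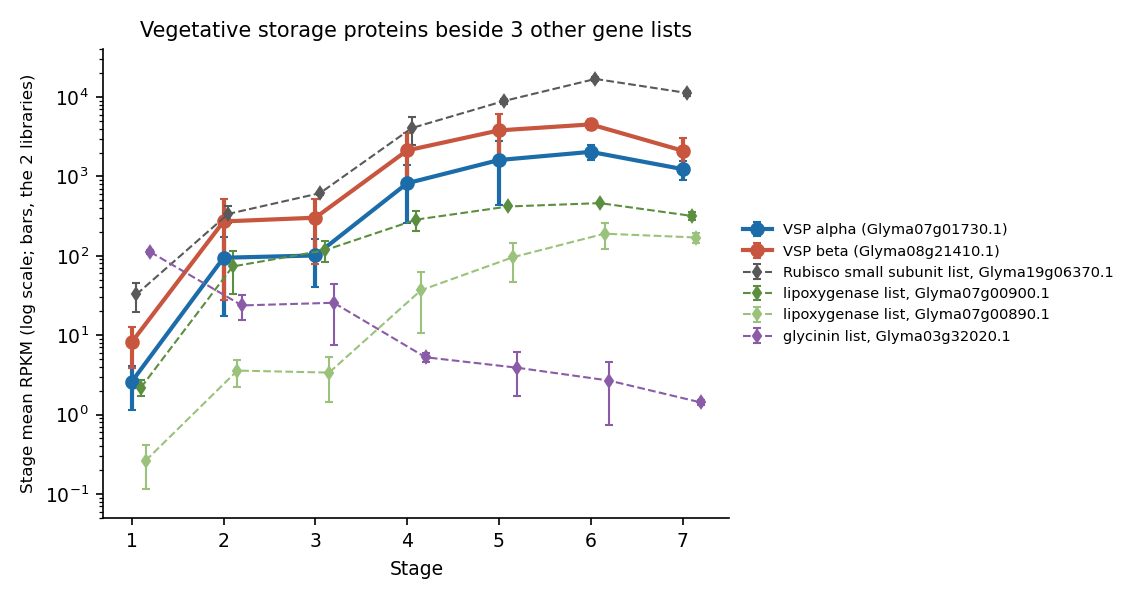
Stage mean RPKM on a log axis against stage, with bars spanning the 2 libraries; thick solid lines are VSP alpha and VSP beta, thin dashed lines 1 or 2 models of the Rubisco small subunit, lipoxygenase and glycinin lists, shifted slightly sideways. At stage 1 the glycinin model (mean 112 RPKM) lies above both vegetative storage proteins (2.60 and 8.17 RPKM), and from stage 2 on below them.

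Outside these lists, the loci whose course was most like that of each gene were found by Pearson's r of log2(RPKM + 1) over the 14 libraries, among 9419 loci with a mean of at least 10 RPKM. The vegetative storage protein genes themselves correlated at 0.993. Next to VSP alpha came Glyma04g21860.1 and Glyma04g06340.1, both at 0.991. Next to VSP beta came Glyma10g11090.1 at 0.990 and Glyma14g34920.1 at 0.988. These identifiers have no names here. The correlations describe the 14 libraries only, since all values share library and depth. Glyma04g21860.1 stood at 209 RPKM in replicate 2 and 82.9 RPKM in replicate 1 of stage 4, and at 34.4 and 5.09 RPKM in replicates 2 and 1 of stage 2, higher in replicate 2 at both stages. Glyma04g06340.1 spanned less, with 86.6 and 119 RPKM at stage 6, against 8.60 and 10.5 RPKM at stage 1. Glyma04g21860.1, Glyma10g11090.1 and Glyma14g34920.1 correlated with each other at 0.998 to 1.000. Over the 14 libraries Glyma10g11090.1 stayed at 0.777 to 1.15 times Glyma14g34920.1. Glyma04g21860.1 stayed at 0.538 to 0.741 times Glyma14g34920.1 and 0.547 to 0.931 times Glyma10g11090.1. How reads that match more than 1 of these loci were counted is not known here, so they may not be independent measurements.

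Loci with neighbouring identifiers, which follow the order of genes along the chromosome, did not share the level of the vegetative storage proteins. Of the 10 loci within 50 identifier numbers of VSP alpha, 7 were tested and none exceeded a stage mean of 51.0 RPKM. Of the 10 around VSP beta, 8 were tested and the highest stage mean was 70.3 RPKM. In each neighbourhood 1 tested locus was called higher at stage 7 than at stage 1, beside 18.4% of all tested models, which is near that share. Beside VSP alpha it was Glyma07g01680.1, with a mean of 32.8 RPKM at stage 7, against 0.187 RPKM at stage 1 (log2 fold change 4.81, limma adjusted p = 1.79e-05). Beside VSP beta it was the next identifier, Glyma08g21420.1, with 1.98 RPKM at stage 7, against 0.0193 RPKM at stage 1 (log2 fold change 1.54, limma adjusted p = 0.00877). Another 2 loci around VSP alpha and 3 around VSP beta were called lower, beside 16.6% of all tested models.

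Another 2 neighbours differed in course from the vegetative storage proteins. The identifier after VSP alpha, Glyma07g01740.1, had stage means of 0.282 RPKM at stage 1, 18.5 RPKM at stage 2, 51.0 RPKM at stage 4, 15.6 RPKM at stage 6 and 1.09 RPKM at stage 7, and passed the F test (limma adjusted p = 0.00141). Glyma08g21390.1, 2 identifiers before VSP beta, had 0.323 RPKM at stage 1, 36.5 RPKM at stage 4 and 3.22 RPKM at stage 7 (F test, limma adjusted p = 0.00243). Both were thus highest at stage 4, when VSP alpha and VSP beta had not yet reached their highest means. The F test called 6 of the 7 tested neighbours of VSP alpha and 8 of the 8 of VSP beta, beside 58.0% of all tested models.

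**Figure D5:**
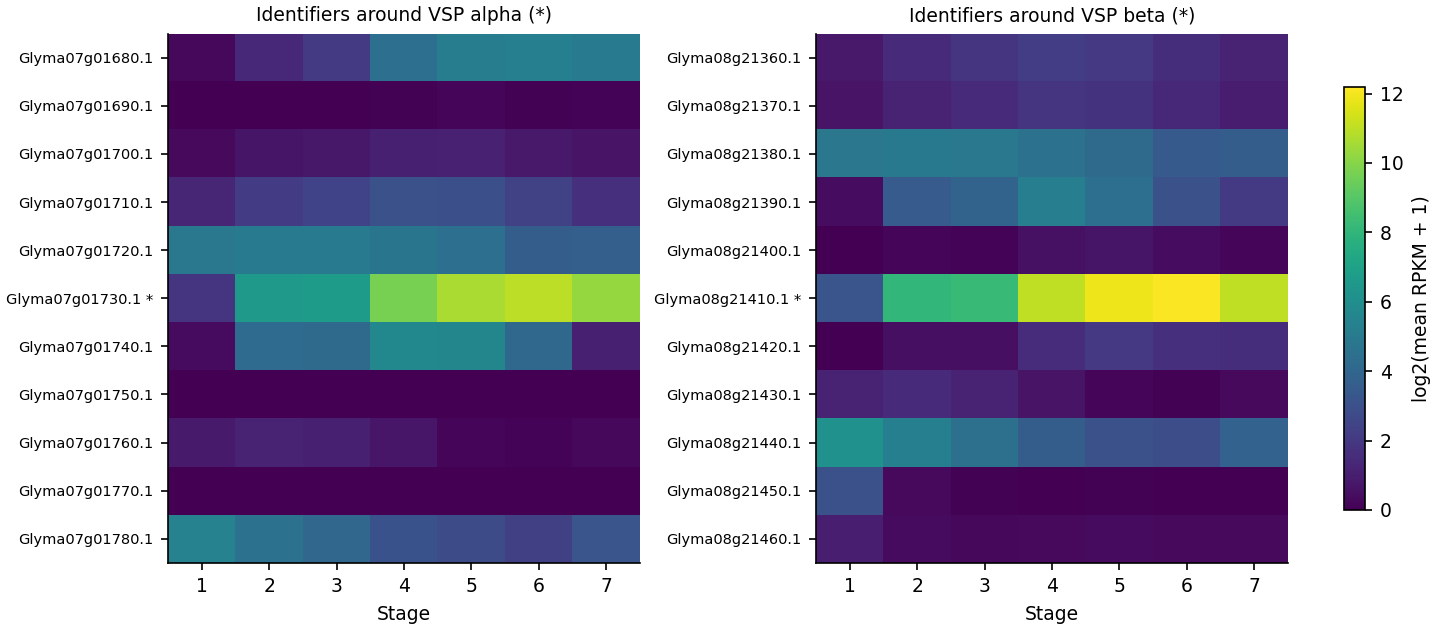
Stage means as log2(RPKM + 1), by colour, for VSP alpha (left) and VSP beta (right), marked *, and the 10 loci with neighbouring identifiers around each, 1 model per locus, against stage. The rows of VSP alpha and VSP beta are the brightest from stage 2 on, and the neighbours stay at or below 70.3 RPKM.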

How the data were processed

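The authors deposited RPKM values for each gene model and library, per the file headers. The submitters' processing notes name Bowtie for alignment; its version, the build, the annotation and the counting rules are not known here. Whole reads came out for all 67016 models found in 2 or more libraries (100%; tolerance 0.003 reads, or 1e-07 of the number), which gave totals and lengths. The 44450 models reaching 1 RPKM in 2 or more libraries were fitted together as log2(RPKM + 1) in limma 3.58.1 (R 4.3.3, statmod 1.5.0), by stage, without a replicate term, with 7 residual degrees of freedom and trend and robust moderation. Tests were two-sided, with Benjamini-Hochberg adjustment over all tested models within a contrast. Folds on this scale understate low models. With 2 biological replicates a stage, the error in limma is the spread between replicate libraries, pooled over the stages and moderated over all tested models. Exact permutation tests used numpy 2.4.6. Fits and tests were tested on simulated data. Alternatives covered pseudocounts, filters, scalings, left-out libraries, a replicate block and limma voom on the recovered reads, which called 18721 models at stage 7 against stage 1 (15596 in limma). Members and lists were chosen with earlier results of these data known. The text names the VSP models, loci within 50 identifier numbers, the 2 most similar loci per gene, and list members. List names are assumptions, since the RefSeq table (Glycine_max_v4.0) matched 0 identifiers.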

Additional observations from a re-analysis of the deposited data

How the results depend on the processing

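The call of a rise from stage 1 to stage 7 and the F test over stages kept their side of the threshold for all 3 models under all alternatives run, as did both tests of the ratio of VSP alpha to VSP beta. The differences between replicates correlated at over 0.1 in 18 of 21 pairs of stages, with a range of -0.173 to 0.602, a hint from the data that the numbers mark a shared series. The sample titles number the libraries of each replicate consecutively by stage, without saying what the numbers stand for. The 3 pairs not over 0.1 were stage 1 with stage 5 (-0.0287), stage 6 (-0.173) and stage 7 (-0.00523). Since no label states a shared series, the fit without the block was kept. With a replicate block, stage 2 against stage 1 passed the test for all 3 models, at log2 fold changes of 4.10 (VSP alpha), 3.91 (Glyma08g21410.1) and 3.87 (Glyma08g21410.2), with adjusted p of 0.0115 to 0.0241. Under quantile normalization stage 6 against stage 5 turned to -0.09 for Glyma08g21410.1 and -0.01 for Glyma08g21410.2; the cause was not tested.

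With 1 library left out, 3 of the uncalled steps changed direction. Stage 2 against stage 1 ran from 2.48 to 5.72 (VSP alpha), 1.83 to 5.99 and 1.79 to 5.96 (the 2 VSP beta models in order). In the same order stage 3 against stage 2 ran from -1.07 to 2.17, -1.32 to 2.84 and -1.33 to 2.83. Stage 4 against stage 3 ran from 1.65 to 4.08, 1.64 to 4.35 and 1.63 to 4.34. Stage 5 against stage 4 ran from -0.47 to 2.22, -0.23 to 1.96 and -0.22 to 1.97. Stage 6 against stage 5 ran from -0.48 to 2.20, -0.47 to 1.64 and -0.47 to 1.64. Stage 7 against stage 6 ran from -1.16 to -0.34, -1.90 to -0.56 and -1.91 to -0.55. The directions turned without replicate 1 of stage 2 or replicate 2 of stage 3, without replicate 1 of stage 4 or replicate 2 of stage 5, and without replicate 1 of stage 5. The lowest level rested on 128 reads, in replicate 1 of stage 1.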
